A study of Mus musculus with 6 samples.

Results

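Of 32 genes listed by name for sterol and fatty acid synthesis, their regulation and sterol export, 31 had a row in a table of 22162 genes from mouse skin fibroblasts (MSFs), and all 31 were among the 11877 genes that passed a filter on low values. The listed gene without a row under that name, Hmgcs1, was not analysed here. MSFs came from the dorsal skin of 1 female FVB/N mouse of the FASST line, which carries Cre-ERT2 under a Col1a2 promoter and a p27Kip1 transgene behind a lox-stop-lox cassette at ROSA26. RNA-seq of poly(A) RNA covered 3 samples given tamoxifen (TAM, 10 µM for 48 h), labelled senescent, and 3 given the ethanol vehicle (EtOH), labelled non-senescent, all grown at 3% oxygen in medium with 10% serum. Both groups carry the same alleles, and no TAM-treated cells without them were analysed here, so the drug itself and the activation of p27Kip1 cannot be told apart.

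Cholesterol is built from acetyl-CoA through the mevalonate pathway, which yields squalene, and through a series of sterol steps from lanosterol to cholesterol. Sterol regulatory element-binding proteins (SREBPs, from Srebf1 and Srebf2) are held in the endoplasmic reticulum with Scap by the Insig proteins while sterols are plentiful, and are carried to the Golgi and cleaved when sterols run low. The released fragment then turns on sterol and fatty acid enzymes, often together with NF-Y, a factor that binds CCAAT. Liver X receptors (LXRs) act the other way, sensing oxysterols and turning on exporters such as Abca1 and Abcg1. Tamoxifen is known, besides its action on the estrogen receptor, to inhibit sterol enzymes, among them the sterol isomerase Ebp, and to disturb the traffic of cholesterol in cells.

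The 15 measured enzymes of the mevalonate and sterol steps were highest in 1 library, TAM replicate 2, in 12 cases, and lanosterol demethylase (Cyp51) and squalene epoxidase (Sqle) were 2.93-fold and 2.26-fold higher there than in EtOH replicate 2. In the other 2 pairs of same-numbered libraries the value was higher in TAM for 15 (pair 1, 48.4%) and 12 (pair 3, 38.7%) of the 31 members, against 22 (71.0%) in pair 2, where the shares over all genes were 45.2%, 44.2% and 50.0%. No member was called in TAM against EtOH. The value in TAM was above that in EtOH in all 3 pairs for Hsd17b7, Cyp51, Fdft1, Scap, Scd1, Fads2, Acss2 and Abcg1, and below it in all 3 for Srebf1, Srebf2, Scd2 and Abca1.

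Promoters are shown for 5 members picked among those whose highest value was in TAM replicate 2 and whose promoter holds CCAAT, to let the box be seen. Mvk, Mvd, Nsdhl, Dhcr7 and Acly also meet this rule and are not shown. Acat2, Scap and Fads2 were also highest in TAM replicate 2, and their promoters hold no match. CCAAT is also in promoters of Acss2, Ebp, Insig1, Pmvk, Srebf1, Srebf2 and Tm7sf2, which were highest in other libraries. Any link between the box and the values was not tested. The windows shown run from 250 bases before the start of the gene to 50 after it, 5′ to 3′ on the strand of the gene. They are from RefSeq on GRCm38.p6, a later build than the mm9 of the expression table. Capitals mark CCAAT or its reverse complement ATTGG. The windows are chr5:4104648-4104947 on the minus strand for Cyp51, chr1:169969156-169969455 on the minus strand for Hsd17b7, chr13:8885356-8885655 on the plus strand for Idi1, chr10:76531355-76531654 on the plus strand for Lss, and chr11:120824498-120824797 on the minus strand for Fasn.
Cyp51: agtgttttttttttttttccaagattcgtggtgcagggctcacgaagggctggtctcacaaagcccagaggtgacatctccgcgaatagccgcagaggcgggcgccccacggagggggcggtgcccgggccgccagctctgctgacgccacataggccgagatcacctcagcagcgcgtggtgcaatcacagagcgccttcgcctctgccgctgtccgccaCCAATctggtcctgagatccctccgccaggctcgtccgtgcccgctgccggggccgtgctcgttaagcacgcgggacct
Hsd17b7: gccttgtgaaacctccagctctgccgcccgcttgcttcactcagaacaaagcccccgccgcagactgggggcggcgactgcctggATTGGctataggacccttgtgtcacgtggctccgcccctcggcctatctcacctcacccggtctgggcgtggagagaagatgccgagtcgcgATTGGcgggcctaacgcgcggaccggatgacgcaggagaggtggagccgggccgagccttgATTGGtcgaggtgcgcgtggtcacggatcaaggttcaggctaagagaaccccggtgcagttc
Idi1: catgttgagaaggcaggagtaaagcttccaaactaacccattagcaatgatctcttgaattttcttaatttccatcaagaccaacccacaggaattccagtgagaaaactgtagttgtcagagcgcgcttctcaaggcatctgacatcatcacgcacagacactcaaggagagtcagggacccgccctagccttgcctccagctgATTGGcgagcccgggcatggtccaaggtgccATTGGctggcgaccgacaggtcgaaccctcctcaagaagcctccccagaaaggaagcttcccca
Lss: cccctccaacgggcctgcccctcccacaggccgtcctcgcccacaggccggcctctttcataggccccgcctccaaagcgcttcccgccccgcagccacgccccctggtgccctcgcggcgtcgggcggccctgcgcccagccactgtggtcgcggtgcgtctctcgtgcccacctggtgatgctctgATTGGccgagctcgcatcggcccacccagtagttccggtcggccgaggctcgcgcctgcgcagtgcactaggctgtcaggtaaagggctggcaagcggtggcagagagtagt
Fasn: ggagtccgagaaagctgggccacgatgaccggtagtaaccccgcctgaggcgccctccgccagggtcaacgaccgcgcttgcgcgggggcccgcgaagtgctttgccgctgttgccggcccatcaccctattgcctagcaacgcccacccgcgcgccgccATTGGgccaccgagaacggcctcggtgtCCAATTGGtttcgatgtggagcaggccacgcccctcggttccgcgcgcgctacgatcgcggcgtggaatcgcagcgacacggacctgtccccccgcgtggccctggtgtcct

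In these windows the box begins 29 bases before the start in Cyp51, 62 in Lss, 45 and 14 in Idi1, 165, 73 and 12 in Hsd17b7, and 90, 62 and 59 in Fasn, where the last 2 matches overlap. A RefSeq promoter was matched by symbol for 23 of the 31 measured members. CCAAT, on either strand, was in 17 of the 23 (73.9%) and in 41.1% of all 27025 genes with a promoter in that table. The 27025 genes were not filtered on their values in MSFs, while all 23 members passed the filter. The shares over all genes are therefore not a like background. GGGCGG, the core of the Sp1 box, was in 19 of the 23 (82.6%, against 38.2%), and CACGTG, an E-box, in 5 (21.7%, against 8.09%). TCACNCCAC, 1 form of the sterol regulatory element, was in 0 of the 23 and in 1.44% of all genes. All 4 motifs were sought on both strands, and a match describes the letters of these windows only.

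The normalized counts summed to 14952367 to 17314953 per library, which does not give the depth. Over all genes tested, Pearson's r of log2 values was 0.863 to 0.933 between TAM replicate 2 and the other libraries. It was 0.900 to 0.932 between EtOH replicate 2 and the others, and 0.903 to 0.972 among the remaining 4. These ranges overlapped, but they pool pairs within and across groups. Within TAM, r was 0.971 between replicates 1 and 3, and 0.9256 and 0.9334 between those and replicate 2. Within EtOH it was 0.9721 between replicates 1 and 3, and 0.9323 and 0.9255 between those and replicate 2. In TAM replicate 2 and EtOH replicate 2 nearly all low values (100% and 98.0% of those up to 20 steps) were within 0.1 of a whole multiple of 1 step, against 16.2 to 74.2% in the other 4. Whether replicates were separate cultures is not stated, so p-values measure the spread between these samples. Fibroblast markers were present in every library, with summed levels of 1531000 to 1680000 normalized counts in EtOH and 684800 to 1127000 in TAM, lowest in TAM replicate 2. These sums are mostly Col1a1, Col1a2 and Col3a1, and the markers did not all move the same way. Of 9 fibroblast genes 2 had an estimate above 0 (22.2%, against 46.2% of all genes tested). Thy1 was at 571 to 2165 in EtOH and 2246 to 4122 in TAM, and the estimates of Pdgfrb and Vim were 0.09 and −0.16. Those of Dcn, Lum, Col3a1, Pdgfra, Col1a2 and Col1a1 were −2.37, −2.38, −1.21, −1.05, −0.77 and −0.66. All 3 TAM values lay below all 3 EtOH values for 5 of the 9 (55.6%, against 11.4% of all genes). They lay above for 1 (11.1%, against 9.19%). Of the markers of fat-laden cells of skin, 6 of 8 adipocyte genes were at most at 2.48 normalized counts in every library and 5 of 6 sebocyte genes at 11.6, with Lep and Dgat2l6 at 0 in all. Summed levels of the adipocyte list were 118 to 436 in EtOH and 130 to 171 in TAM, and those of the sebocyte list 243 to 274 and 256 to 296. Of 7 keratinocyte genes 6 were at most at 13.4, with Krt1 and Krt6a at 0 and sums of 41.0 to 75.6 over all libraries. Of 6 macrophage genes, 3 were at most at 7.93 (Emr1 at 0), and the sums were 175 to 462 in EtOH and 275 to 466 in TAM. The macrophage genes Lyz2 (35.2 to 62.9 in EtOH and 103 to 160 in TAM) and Csf1r (73.4 to 75.7 and 90.6 to 226) did not overlap between groups, and Cd68 was at 352 in EtOH replicate 2 and 49.5 to 116 elsewhere. Of 4 endothelial genes 2 (Pecam1 and Cdh5) were at most at 11.3, and the sums were 85.8 to 241 in EtOH and 15.7 to 34.3 in TAM. The sums in EtOH were mostly Kdr, at 205, 68.7 and 116 there and at 4.84, 7.53 and 14.0 in TAM. Its estimate was −3.71 (limma adjusted p = 0.0608, or 0.0488 with the block). Tek was at 7.60 to 31.3 in EtOH and 1.66 to 8.51 in TAM. Summed proliferation genes were 4350 in EtOH replicate 2 and 4561 in TAM replicate 2, against 1525 to 2491 in the other 4. Cdkn1b, the gene that encodes p27Kip1, was at 1427, 3074 and 1853 normalized counts in EtOH replicates 1 to 3 and at 1699, 1520 and 1630 in TAM (log2 −0.32, SE 0.28, limma adjusted p = 0.677). Whether reads of the p27Kip1 transgene were counted for Cdkn1b is not given in the sources used here. The paper reported GFP from the transgene, by flow cytometry, in MSFs given TAM. The part of the marker and Cdkn1b levels in the results on sterol genes was not tested. In bulk samples, fewer cells of a type and less RNA per cell cannot be told apart.

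Across the 31 members the test called 0 higher and 0 lower in TAM (limma, Benjamini-Hochberg adjusted p under 0.05 over all genes tested), where 0.168% and 0.0758% of all genes tested were called. With the replicate number as a block it also called 0 and 0, where 1.00% and 0.615% of all genes were called. At an unadjusted limma p under 0.05, 1 member (Scap) passed without the block and 6 with it, against 1588 and 2014 of all 11877 genes. The 6 were Hsd17b7, Srebf1, Scap, Scd1, Scd2 and Abca1. In that order, their SEs were 0.47, 0.19, 0.18, 0.57, 0.44 and 0.85 without the block. With it they were 0.27, 0.16, 0.20, 0.33, 0.22 and 0.45. The median log2 fold change of the members was 0.00 (−0.03 over all genes) with a range of −1.18 to 1.05, and 16 of 31 were above 0. The smallest adjusted p in limma was 0.207 without the block (Scap) and 0.147 with it (Scd2).

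**Figure D1:**
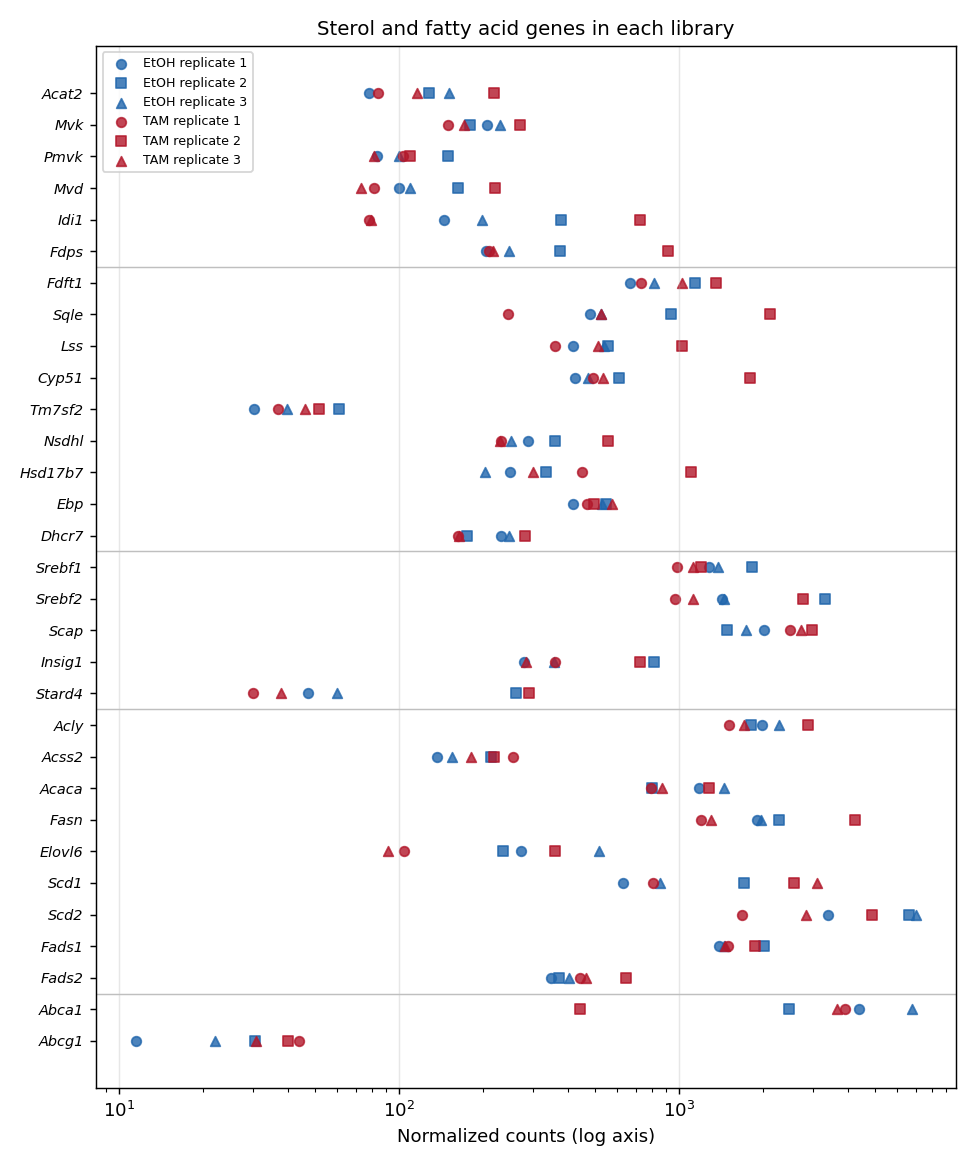
Normalized counts (log axis) of the 31 measured members in each of the 6 libraries, with EtOH in blue, TAM in red and the replicate number given by the marker. Rows are grouped, from the top, as mevalonate steps, sterol steps, regulators and sterol transport, fatty acid synthesis, and LXR exporters. The square of TAM replicate 2 is the rightmost point for 17 members and the leftmost for Abca1.

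The libraries within a group did not lie close together for these genes. The members' median SD of log2 values was 0.70 among the 3 TAM libraries and 0.39 among the 3 EtOH libraries, where the medians over all genes were 0.30 and 0.29. TAM replicate 2 held the highest value for 17 of 31 members (54.8%), and for 25.7% of all genes tested. It did so for 5 of 6 mevalonate genes, 7 of 9 sterol genes, 2 of 5 regulators and transport genes, 3 of 9 fatty acid genes and neither exporter. TAM replicate 2 minus EtOH replicate 2 had a median log2 difference of 0.60 over the members (0.00 over all genes), while the medians were −0.16 in pair 1 and −0.29 in pair 3 (−0.05 over all genes in each). In 11 of 31 members (35.5%) the value was higher in TAM in pair 2 only and lower in pairs 1 and 3, as it was for 17.0% of all genes.

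A value higher in TAM in 3 of 3 pairs was seen for 8 members (25.8%), against 18.3% of all genes, and a lower value in 3 of 3 pairs for 4 members (12.9%), against 23.6%. The pair differences of the members correlated across the 31 genes with r = 0.707 between pairs 1 and 3, 0.0210 between pairs 1 and 2 and 0.208 between pairs 2 and 3, where the values over all genes were 0.700, 0.327 and 0.446. These correlations are across genes of the same libraries, and genes are not independent replicates.

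**Figure D2:**
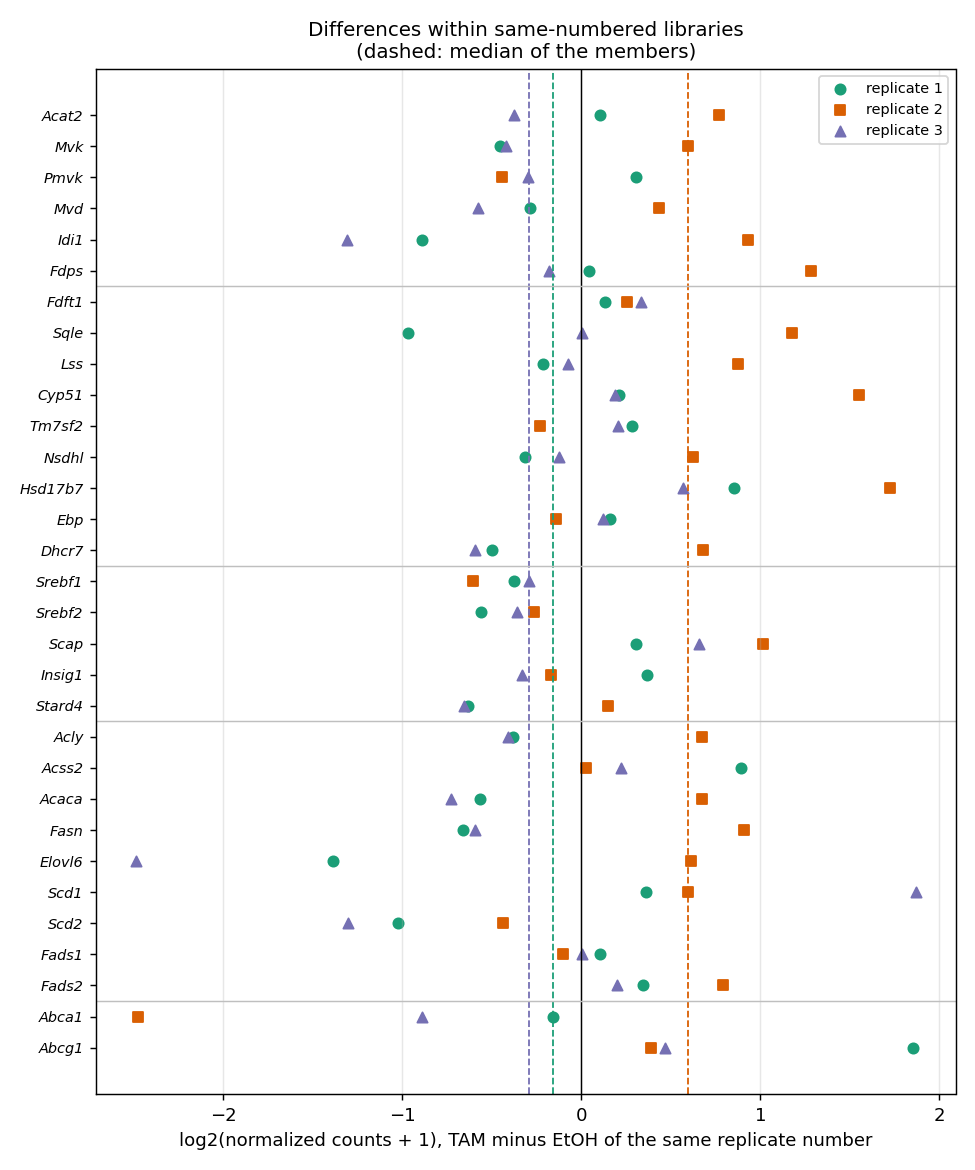
Differences of log2(normalized counts + 1), TAM minus EtOH, within same-numbered libraries for the 31 members, with 1 marker and colour for each replicate number and rows grouped by role. Dashed lines are the medians over the members, 0.60 in pair 2 against −0.16 and −0.29 in pairs 1 and 3.

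The mevalonate steps, which carry acetyl-CoA to the isoprenoid farnesyl diphosphate, had 2 of 6 measured genes above 0 and a median log2 fold change of −0.12. Their estimates ran from −0.42 to 0.38 with adjusted p of 0.822 or more in limma. Idi1, which isomerises isopentenyl diphosphate, was at 145, 379 and 198 normalized counts in EtOH replicates 1 to 3 and at 77.8, 723 and 79.5 in TAM. Fdps, which makes farnesyl diphosphate, was at 204, 375 and 246 in EtOH and at 210, 914 and 217 in TAM. Both had their highest value in TAM replicate 2 and their second highest in EtOH replicate 2, and they were named after their values were seen. The BLAST match of transcripts to the genome found 96.4% of the Fdps transcript and 86.6% of that of Idi1 elsewhere at 95% identity or more, so reads of these genes may have been split with near-identical copies. The other 4 (Acat2, of whose transcript 58.1% was matched elsewhere, Mvk, Pmvk and Mvd) lay between 73.1 and 271 normalized counts in every library, and for 3 of them, Pmvk excepted, TAM replicate 2 was the highest.

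The sterol steps, from the first committed enzyme of sterol synthesis to the last reductase, had 8 of 9 genes above 0 and a median log2 fold change of 0.09. Sqle, which opens the path from squalene to sterols (chr15:59146632-59162747 in the mm9 annotation, as for all gene positions here, plus strand), was at 480, 937 and 526 normalized counts in EtOH replicates 1 to 3 and at 245, 2117 and 527 in TAM. The lowest and the highest of the 6 values were both TAM libraries. Its pair differences were −0.97, 1.18 and 0.00, and the estimate was 0.07 (SE 0.73, limma adjusted p = 0.978).

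Cyp51, which removes the methyl group of lanosterol (chr5:4081145-4104746, minus strand), was at 427, 610 and 471 in EtOH and at 493, 1786 and 537 in TAM. TAM replicate 2 alone lay above every EtOH value, and the other 2 TAM values lay within the EtOH range. The difference was positive in 3 of 3 pairs (0.21, 1.55 and 0.19), and limma gave 0.65 (SE 0.48, adjusted p = 0.614). Without TAM replicate 2 the estimate was 0.05.

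Hsd17b7, the sterol 3-ketoreductase (chr1:171879666-171899372, minus strand), had the highest estimate of all members. It is given in full after its values were seen. It was at 248, 335 and 203 normalized counts in EtOH and at 450, 1108 and 301 in TAM, so TAM replicate 3 lay below EtOH replicate 2 and the groups overlapped. The pair differences were 0.86, 1.72 and 0.57, higher in 3 of 3, with a limma estimate of 1.05 (SE 0.47, 95% interval −0.06 to 2.16, adjusted p = 0.396). With the block the SE was 0.27 and the adjusted p was 0.159. Without TAM replicate 2 the estimate was 0.52.

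Ebp, the isomerase that tamoxifen is known to bind (chrX:7762455-7770638, minus strand), was at 418, 548 and 530 in EtOH and at 467, 497 and 576 in TAM. The groups overlapped, and the estimate was 0.05 with a 95% interval of −0.39 to 0.49 (limma adjusted p = 0.942). Dhcr7, the last reductase of the cholesterol branch (chr7:151009050-151034315, plus strand), was at 231, 175 and 247 in EtOH and at 163, 281 and 163 in TAM. Its highest value was TAM replicate 2 and its 2 lowest the other TAM libraries. The estimate was −0.14 with an interval of −0.81 to 0.53 (adjusted p = 0.876 in limma).

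Of the remaining sterol genes, Fdft1, which makes squalene, was higher in TAM in 3 of 3 pairs (0.13, 0.26 and 0.33) with an adjusted p of 0.769 in limma. Of its transcript 56.3% was matched elsewhere in the genome. Part of its exons, 26.9% of the bases, lies opposite exons of Ctsb, which was at 21383 to 30392 normalized counts, and whether the counting used strand is not given in the sources used here. Lss, which closes the sterol rings, was at 1026 in TAM replicate 2 and at 360 to 558 in the other 5 libraries. Nsdhl ranged from 229 to 555 and was highest in TAM replicate 2, while Tm7sf2 ranged from 30.3 to 61.1 and was highest in EtOH replicate 2. Tm7sf2 shares 15.3% of its exon bases with a neighbouring gene on the same strand.

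Among the regulators, Scap, the escort of SREBPs (chr9:110235792-110287450, plus strand), was at 2006, 1479 and 1733 normalized counts in EtOH and at 2484, 2993 and 2734 in TAM. All 3 TAM values lay above all 3 EtOH values, and the pair differences were 0.31, 1.02 and 0.66. The limma estimate was 0.66 (SE 0.18, 95% interval 0.23 to 1.09) with an adjusted p of 0.207, or 0.201 with the block. Without TAM replicate 2 it was 0.59. The gene 5830462I19Rik lies opposite 18.9% of the exon bases of Scap.

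Srebf1, whose main products drive fatty acid genes (chr11:60012591-60036083, minus strand), was at 1277, 1828 and 1377 in EtOH and at 983, 1200 and 1125 in TAM. It was the only member with every TAM value below every EtOH value. The limma estimate was −0.43 (SE 0.19, adjusted p = 0.406), and the pair differences were −0.38, −0.61 and −0.29. Srebf2, which drives mainly sterol genes (chr15:81977696-82035806, plus strand), was at 1430, 3313 and 1443 in EtOH and at 970, 2762 and 1124 in TAM. Replicate 2 was the highest of its group in both, so the groups overlapped although the value was lower in TAM in 3 of 3 pairs, and the estimate was −0.39 (SE 0.48, limma adjusted p = 0.772). Over the 5 regulators and transport genes the median log2 fold change was −0.38, with 1 of 5 above 0.

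Insig1, which retains Scap in the endoplasmic reticulum and is itself an SREBP target (chr5:28397952-28405201, plus strand), was at 279, 815 and 357 in EtOH and at 360, 723 and 283 in TAM. Both replicate 2 libraries stood above the other 4, and the estimate was −0.05 (SE 0.49, limma adjusted p = 0.979). With the block the SE was 0.21 and the adjusted p 0.939. A stretch of its transcript, 76.7%, was matched elsewhere in the genome. Stard4, a cytosolic carrier of cholesterol, was at 262 and 291 in EtOH and TAM replicate 2 and at 30.1 to 60.1 in the other 4 libraries. Counted without overlap, 3 members (Scap, Fads2 and Abcg1; 9.68%) lay above EtOH in all TAM libraries, against 9.19% of all genes tested, and 1 (Srebf1; 3.23%) lay below, against 11.4%. Without EtOH replicate 2 there were 7 members above (22.6%, against 15.4% of all genes) and 2 below (6.45%, against 19.6%). Without TAM replicate 3 there were 5 above (16.1%, against 12.7%), and without EtOH replicate 1 there were 2 below (6.45%, against 17.2%). Among single libraries left out, the count below moved most without TAM replicate 2, to 12 (38.7%, against 20.5%).

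Among 9 measured fatty acid genes 4 had an estimate above 0, and the median was −0.04. Fasn, the fatty acid synthase (chr11:120667254-120685492, minus strand), was at 1899, 2274 and 1966 normalized counts in EtOH and at 1200, 4268 and 1300 in TAM. As for Dhcr7, TAM held both the lowest pair and the highest value, and the estimate was −0.12 (SE 0.47, limma adjusted p = 0.943). Acly and Acaca, the enzymes that supply acetyl-CoA and malonyl-CoA, had the same order of pairs, higher in TAM in pair 2 (0.67 and 0.68) and lower in pairs 1 and 3. Of the Acaca transcript 85.0% was matched elsewhere. Elovl6, which elongates palmitate, was at 274, 236 and 517 in EtOH and at 104, 361 and 91.0 in TAM, with an estimate of −1.09 (SE 0.56, limma adjusted p = 0.464). It was named after its values were seen, and 38.2% of its transcript was matched elsewhere.

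The 2 stearoyl-CoA desaturases, which make oleate from stearate, had estimates of opposite sign. Scd1 (chr19:44468941-44482199, minus strand) was at 629, 1709 and 852 in EtOH and at 808, 2580 and 3122 in TAM. TAM replicates 2 and 3 lay above every EtOH value and replicate 1 within them, and the estimate was 0.94 (SE 0.57, limma adjusted p = 0.542). Scd2 (chr19:44368166-44381354, plus strand) was at 3405, 6648 and 7052 in EtOH and at 1673, 4908 and 2851 in TAM. It was lower in TAM in 3 of 3 pairs (−1.02, −0.44 and −1.31), though TAM replicate 2 lay above EtOH replicate 1. The estimate was −0.92 (SE 0.44, adjusted p = 0.433 in limma), and with the block the SE was 0.22 and the adjusted p 0.147. Per kb of annotated exon, Scd2 was at 1046 normalized counts on average in EtOH and at 577 in TAM, and Scd1 at 220 and 449.

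Fads2, the desaturase that starts polyunsaturated synthesis (chr19:10138654-10175993, minus strand), was at 348, 372 and 406 in EtOH and at 442, 644 and 467 in TAM, with no overlap. The limma estimate was 0.45 (SE 0.20, adjusted p = 0.405). Fads1, the next desaturase of that path, was between 1391 and 2009 in all libraries with an estimate of 0.00 (95% interval −0.49 to 0.49). Acss2, which makes acetyl-CoA from acetate, was higher in TAM in 3 of 3 pairs, by 0.03 to 0.89 on the log2 scale.

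**Figure D3:**
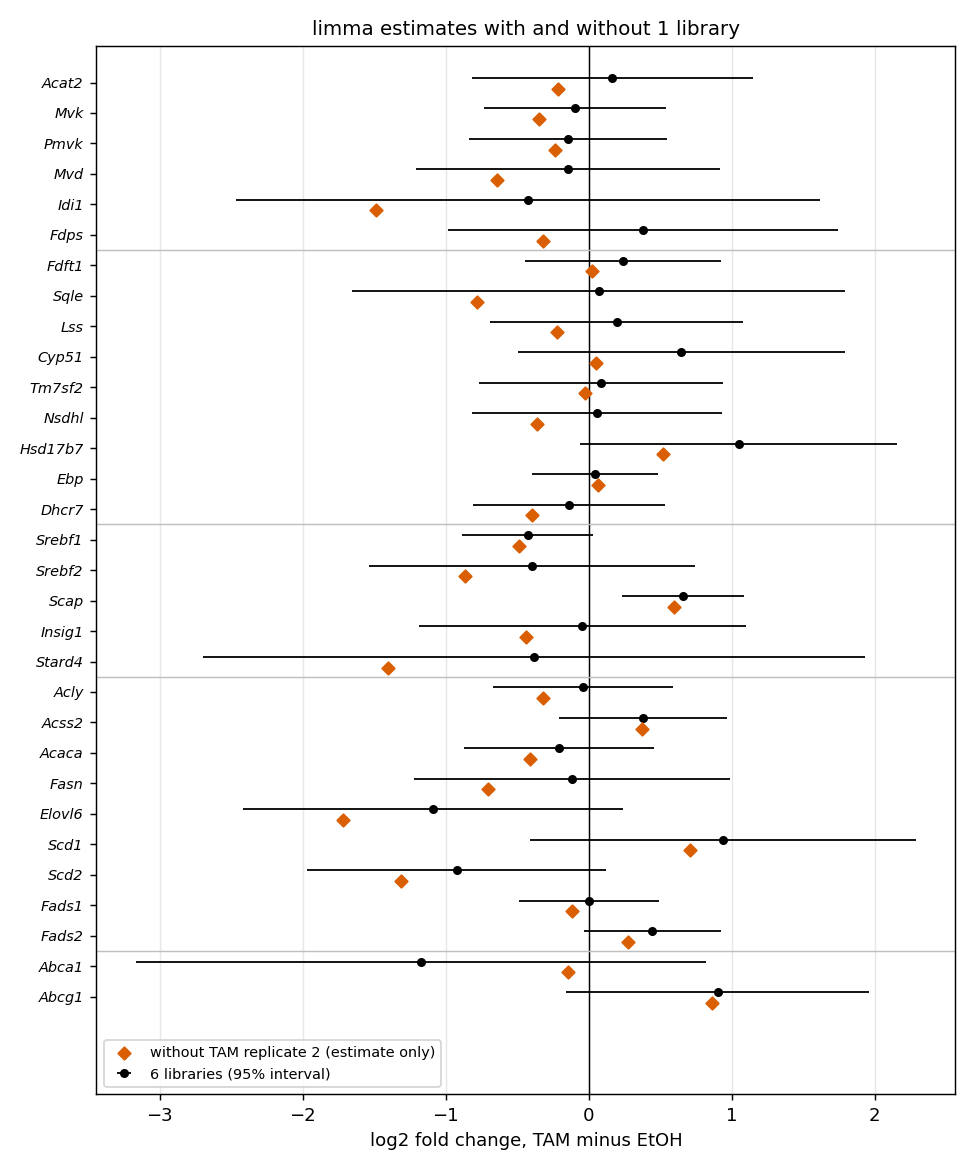
limma log2 fold change of TAM minus EtOH for the 31 members, with circles and 95% intervals from all 6 libraries and diamonds for the estimate without TAM replicate 2. The fit had no replicate block, and in it only the interval of Scap leaves out 0 (0.23 to 1.09). Diamonds lie to the left of circles for most members, with Abca1 (−1.18 to −0.14) and Ebp the exceptions.

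The estimates of the 2 LXR exporters also differed in sign. Abca1, which passes cholesterol to apolipoprotein A-I (chr4:53043659-53172767, minus strand), was at 4380, 2471 and 6822 normalized counts in EtOH and at 3916, 443 and 3681 in TAM. TAM replicate 2 was the lowest library, with the pair 2 difference at −2.48 and those of pairs 1 and 3 at −0.16 and −0.89. The estimate was −1.18 (SE 0.85, limma adjusted p = 0.601), and without TAM replicate 2 it was −0.14. Abcg1, which exports cholesterol to HDL particles (chr17:31194643-31252722, plus strand), was at 11.4, 30.5 and 22.0 in EtOH and at 43.9, 40.2 and 30.8 in TAM, close to the filter on low values. The groups did not overlap, by a margin of under 1 normalized count between TAM replicate 3 and EtOH replicate 2, and the estimate was 0.90 (SE 0.45, limma adjusted p = 0.448).

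**Figure D4:**
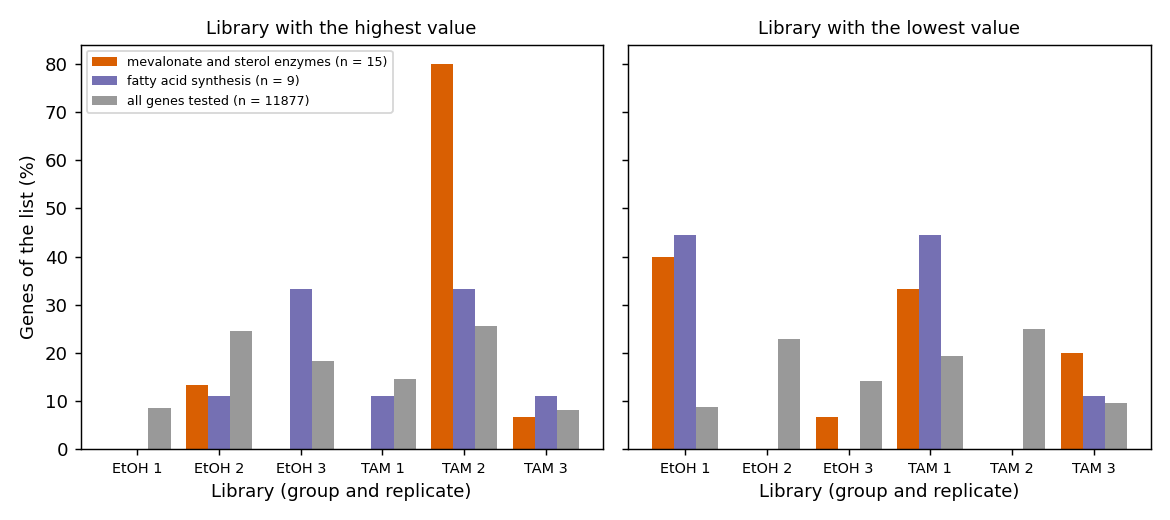
Percent of genes whose highest value (left) or lowest value (right) was in each library, for the 15 mevalonate and sterol enzymes, the 9 fatty acid genes and all 11877 genes tested. TAM replicate 2 held the highest value for 80.0% of the enzymes and 25.7% of all genes.

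Because TAM replicate 2 held so many of the highest values, the members were counted again without it. In that setting the fit still shares 1 estimate of spread over 5 libraries. The library was picked for its high values in these members, so a lower median and more members below were partly set in advance. The shares over all genes carry no such choice, so they are not a like comparison. The median log2 fold change was then −0.32 over the 31 members (−0.04 over all genes), and 9 were above 0. Both TAM values lay below all 3 EtOH values for 12 members (38.7%), against 20.5% of all genes, and above them for 3 (9.68%), against 14.2%. The 12 were Mvk, Mvd, Idi1, Nsdhl, Dhcr7, Srebf1, Srebf2, Stard4, Acly, Fasn, Elovl6 and Scd2, which span all groups but the exporters. The estimates without TAM replicate 2 were −1.48 for Idi1, −0.71 for Fasn, −0.78 for Sqle and −0.86 for Srebf2. No member was called, and the smallest adjusted p in limma was 0.198. Leaving out both replicate 2 libraries, a setting added after seeing the data, gave 7 members above and 14 below, with shares over all genes of 22.1% and 31.9%, a median of −0.14 and a smallest adjusted p of 0.0914 in limma, for 2 libraries against 2.

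Other genes of these pathways were taken from a list of 53, of which 47 were tested and 0 were called in either fit. Of 18 genes of sterol synthesis and uptake 6 had an estimate above 0 with a median of −0.11, of 10 of LXR and export 5 with a median of 0.01, and of 19 of fatty acid and glycerolipid synthesis 8 with a median of −0.07. Without overlap, Cyp27a1, which makes an oxysterol from cholesterol, was at 77.4, 163 and 142 normalized counts in EtOH and at 28.7, 37.7 and 61.8 in TAM (log2 −1.56, SE 0.41, limma adjusted p = 0.201). Apoe, an acceptor of exported cholesterol, was at 141, 172 and 84.9 in EtOH and at 543, 198 and 319 in TAM (log2 1.35, SE 0.42, limma adjusted p = 0.254). The estimates of Acsl1 and Me1, which activate fatty acids and supply NADPH, were 0.66 and 0.44, and those of Acat1 and Mbtps2, the mitochondrial thiolase and the site-2 protease of SREBPs, were −0.40 and −0.37.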

How the data were processed

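The 6 RNA-seq libraries of MSFs were grouped by the treatment in their labels, 3 TAM and 3 ethanol. The authors mapped reads to mm9 with TopHat, counted them with htseq-count on annotated genes, and ran edgeR after TMM normalization. Versions are not given in the sources used here. The deposited values are a normalized signal, a normalized count for each gene in each library. They are not whole numbers and the scaling is not stated, so edgeR was not run, and depth, hence counting error, is unknown. Test power rests on 3 libraries against 3, and an exact permutation of 3 against 3 cannot give p below 0.1.

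Values were analysed as log2(value + 1) in limma 3.58.1 (R 4.3.3) with an intensity trend. Genes with at least 1 c.p.m. (16.2 normalized counts) in 3 of 6 libraries were tested, p-values were Benjamini-Hochberg adjusted over 11877 genes, and calls were made at an adjusted p under 0.05, two-sided. The main design had no replicate block. Its SEs, intervals and p-values, given unless the block is named, do not use the pairing of same-numbered libraries. Same-numbered libraries deviated together, with correlations of 0.241, 0.287 and 0.422 for replicates 1, 2 and 3 (−0.31 to 0.0370 for other pairs), so the replicate numbers were taken to pair the samples. That pairing comes from the numbers in the labels, and the block changed no call of a member. Alternatives were other scalings, pseudocounts, filters, library weights, and each library left out. Positions and overlaps came from the mm9 annotation, and BLAST 2.17.0 was used to find copies of the members' transcripts (95% identity or more). The script was tested on simulated data.

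The members and lists were chosen with earlier results of these data known. Full values are given for members called in either fit, for members whose groups do not overlap, and for Srebf1, Srebf2, Scap, Insig1, Abca1, Abcg1, Sqle, Cyp51, Ebp, Dhcr7, Fasn, Scd1 and Scd2 whatever their values. Other pathway genes were named if called or, up to 6, by the largest fold change among those without overlap. The remaining members are given more briefly, and these and any gene outside the rules were named after their values were seen. Python 3.11.15 was used for the tables and plots.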

Additional observations from a re-analysis of the deposited data

How the results depend on the processing

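Of 527 recomputed estimates of members, 461 kept their sign and their side of the threshold. Fdft1, Cyp51, Hsd17b7, Srebf1, Scap, Acss2, Elovl6, Scd1, Scd2, Fads2, Abca1 and Abcg1 kept their sign in every setting tried. With library weights, 1 member was called higher (Scap, log2 0.56, limma adjusted p = 0.0439) and 1 lower (Elovl6, −1.86, adjusted p = 0.0335), against 386 and 356 of all genes. The weights were 0.288 for TAM replicate 2, 0.292 for EtOH replicate 2 and 4.06 for TAM replicate 3. Over the other settings no member was called. The replicate block changed no call of a member, while over all genes it gave 119 higher and 73 lower calls against 20 and 9. The smallest adjusted p of a member under the block was 0.147. Scaling by the library sum moved the median of all genes from −0.03 to 0.0779. It turned the estimates of Mvk to 0.0178, Insig1 to 0.0665 and Acly to 0.0722, each below the new median of all genes. Library weights turned Fdps to −0.0016, Sqle to −0.0875 and Nsdhl to −0.185. The cause was not tested. With single libraries or same-numbered pairs left out, log2 estimates that changed sign ran over Acat2 −0.22 to 0.47, Mvk −0.44 to 0.0874, Pmvk −0.37 to 0.0889, Mvd −0.64 to 0.14, Idi1 −1.48 to 0.12, Fdps −0.32 to 0.74, Sqle −0.78 to 0.77, Lss −0.22 to 0.53, Tm7sf2 −0.14 to 0.35, Nsdhl −0.36 to 0.27, Ebp −0.0742 to 0.14, Dhcr7 −0.55 to 0.0911, Srebf2 −0.86 to 0.0079, Insig1 −0.44 to 0.41, Stard4 −1.41 to 0.38, Acly −0.40 to 0.15, Acaca −0.65 to 0.0547, Fasn −0.71 to 0.21 and Fads1 −0.11 to 0.17. Members above EtOH numbered 3 to 7 and those below 1 to 14, with 12 below without TAM replicate 2. Estimates with 2 libraries in a group share the spread of the other group. Depth is unknown, so counting error could not be set against these differences.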

Other observations

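EtOH replicate 2 had high levels of genes of cholesterol storage, uptake and fatty acid activation, which were picked after their values were seen. Soat1, which esterifies cholesterol for storage, was at 4968 normalized counts there, at 1324 and 1078 in EtOH replicates 1 and 3, and at 1199 to 2183 in TAM. Acsl3, an acyl-CoA synthetase of lipid droplets, was at 1643 there and at 294 to 326 in the other 5 libraries. Scarb1, the HDL receptor, was at 1392 there and at 345 to 716 elsewhere, and Insig2, a partner of Insig1, at 1971 there and at 661 to 995 elsewhere. These 4 genes were highest in EtOH replicate 2, whereas Sqle, Cyp51 and Fasn were highest in TAM replicate 2.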
